A study of Mus musculus with 12 samples.

Results

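The gene expression of *Card9*-/- neutrophils was compared with that of wild type neutrophils on immobilized immune complexes (IC). The samples were chosen by their titles, as the 3 *Card9*-/- IC samples and the 3 wild type IC samples, which make up 6 of the 12 arrays of the series. All 28944 transcript clusters of the array that carry annotated identifiers were compared. The wild type mice were C57BL/6. The *Card9*-/- mice were homozygous for the *Card9* tm1Jrld mutation, which was backcrossed to C57BL/6 for at least 6 generations. The cells of both groups were labelled Ly6G+, were isolated from bone marrow and were kept for 4 h at 37 °C on a plate-bound antigen that had been covered with IgG against it. Adherent and nonadherent cells were lysed together, and total RNA was prepared from them. The other 6 arrays, of the same genotypes on a control surface without stimulation by IC, were used to estimate the spread and to set the genotype difference on IC beside that on the control surface. Each of 3 experiments held 1 array of each of the 4 groups, so that the 2 genotypes were compared within an experiment. The methods give adult mice of a few months, of either sex, for the study as a whole. The age and sex of the mice and their number were not stated for the single samples. *Card9* was missing from the whole animal and not from neutrophils alone.

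CARD9 is an adaptor protein of myeloid cells. Receptors that signal through Syk and protein kinase C lead CARD9 to assemble with BCL10 and the paracaspase MALT1, and this complex activates the kinases that release NF-κB from its inhibitors, the IκB proteins. NF-κB then drives transcription of cytokine genes and also of its own inhibitors and of ubiquitin-editing proteins, which end the response. Neutrophils bind immobilized IgG through Fcγ receptors, which use Src-family kinases, Syk and PLCγ2, and they are short-lived cells that can nevertheless make new cytokine mRNA.

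All values below are log2 signals as deposited, and a difference is the *Card9*-/- signal minus the wild type signal on this scale, so that −1 is a signal reduced by a factor of 2. The signal of an array depends on its probes, so levels are compared between samples for the same cluster and not between genes. The medians of the 6 IC arrays were 5.70 to 5.75 in experiment 1, 5.86 to 5.91 in experiment 2 and 5.33 to 5.39 in experiment 3. The correlation across clusters, which are not independent replicates, was 0.989 to 0.991 between the genotypes of an experiment and 0.944 to 0.986 between experiments. The experiments also differed in sex-linked genes. *Xist*, the RNA of the inactive X chromosome, had a signal of 10.48 and 10.72 in the wild type and *Card9*-/- arrays of experiment 1, of 10.64 and 10.75 in experiment 2 and of 3.31 and 3.39 in experiment 3, whereas the Y-linked *Eif2s3y* had 2.25 and 2.33, then 2.71 and 2.40, and then 8.72 and 8.90. The genotypes were thus alike in these genes within each experiment, and experiment 3 stood apart from the other two, so that its other deviations and the sex of the mice cannot be told apart. Of the markers of neutrophil granules and maturation, 18 of 18 had a signal above that of the median cluster, and their mean level was 11.80 to 11.97 in the wild type arrays and 11.89 to 12.02 in the *Card9*-/- arrays. Their median difference was 0.08, and 0 of the 18 passed the test (limma with the experiment as a block, Benjamini-Hochberg adjusted p over all clusters under 0.05), with 0 also at an unadjusted p under 0.05. As these are bulk samples, fewer cells of a type and less RNA per cell cannot be told apart.

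Among the genes that were lower in *Card9*-/- cells were the cytokine genes *Il1a* and *Tnf*, the IκB genes *Nfkbid* and *Nfkbib* and *Cd274*, the gene of the checkpoint ligand PD-L1, and among the higher ones were *Idh1* and the immunoglobulin genes *Igha* and *Igkv10-96*. Of the 28944 clusters, 34 were lower in *Card9*-/- cells (0.117%) and 13 were higher (0.0449%), which makes 47 or 0.162% in all. Some of these clusters hold identical values, so that the 47 were 39 distinct sets, 31 lower and 8 higher. The lower clusters named 27 single genes. The higher clusters named 4, with a pair of clusters for *Igha*, and 1 further cluster named several genes. All 47 had their direction in each of the 3 experiments, where 15.4% of all clusters were lower and 13.5% higher in all 3. For 28 of the 47 the signals of the genotypes did not overlap at all, as for 1.87% of all clusters, but the 47 were chosen by their p. Of the 47, 44 lay above the signal of the median cluster. The differences were small over most of the array: the median over all clusters was −0.014, and 97.2% of the clusters differed by less than 0.5. The share of lower clusters among the calls was 72.3%, and it was 88.6% of 44 calls after quantile normalization and 86.4% of 22 after median centring. It was 58.4% of 173 calls in a fit of the 6 IC arrays alone, 31.6% of 76 without experiment 1 and 89.7% of 116 without experiment 3. The number of calls rested on the experiments. Without experiment 1 there were 24 lower and 52 higher clusters, without experiment 2 there were 2 and 1, and without experiment 3 there were 104 and 12. Of the 25 called clusters that were followed individually, 10 passed without experiment 1, 1 (*Il1a*) without experiment 2 and 13 without experiment 3, and all 25 kept their direction in each case.

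**Figure D1:**
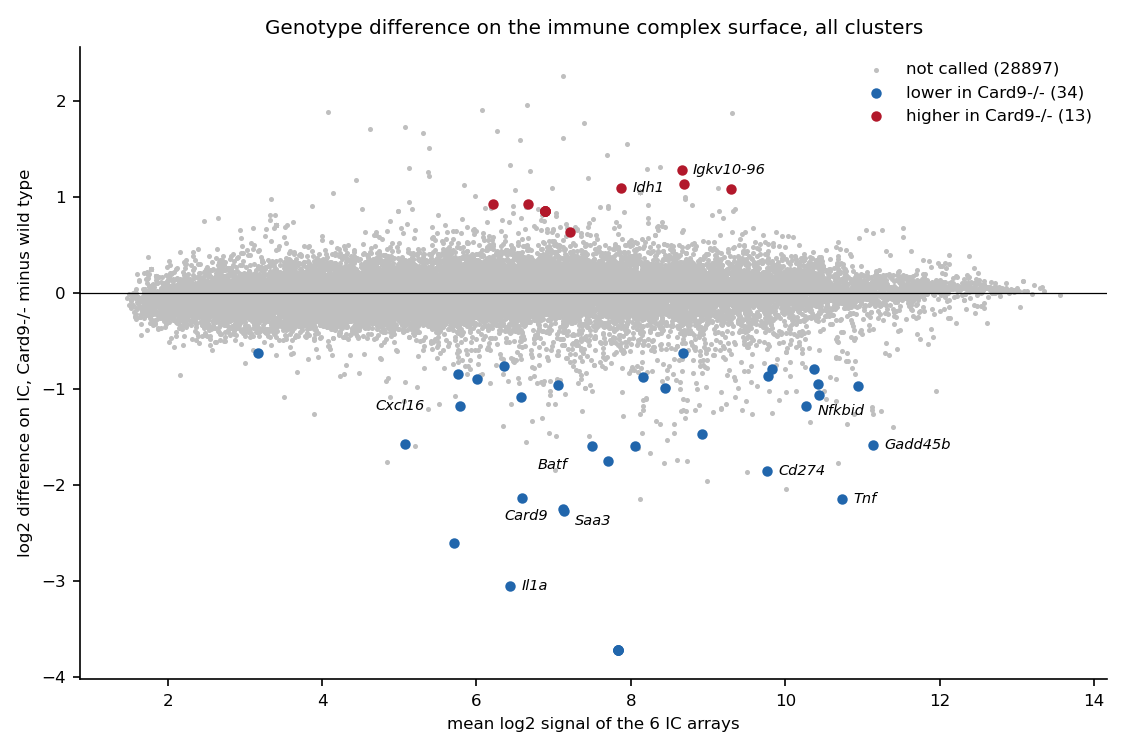
Genotype difference on IC, *Card9*-/- minus wild type in log2 units (vertical axis) against the mean log2 signal of the 6 IC arrays (horizontal axis), with a point for each of the 28944 clusters. Coloured points passed the limma test (34 lower in blue, 13 higher in red), and the lowest blue point, at −3.72, is a set of clusters that name no gene.

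*Card9* itself was the check of the labels. Its signal on IC was 8.08, 8.21 and 8.50 in the wild type arrays of experiments 1, 2 and 3 and 6.42, 6.00 and 5.56 in the *Card9*-/- arrays. All 3 *Card9*-/- values thus lay below all wild type values. The difference was −2.27 (standard error 0.22, n = 3 experiments, adjusted p = 0.00491), a 4.83-fold lower signal, and on the control surface it was −2.52 (adjusted p = 0.00229). Which of the probes lie in the part of the gene that the mutation removed was not stated. *Malt1* (−0.69, adjusted p = 0.307) and *Bcl10* (−0.22, adjusted p = 0.742), the partners of CARD9, did not pass, nor did any other of the 14 measured genes of the CARD9 complex and its upstream kinases. Of the 200 measured genes nearest to *Card9* on chromosome 2, 100 on each side, 1 was called (*Ralgds*, 39 genes away), 27 were lower and 26 higher in all 3 experiments, and the median difference was −0.0038.

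Among the genes of secreted and surface proteins, the difference was largest for *Il1a*, which encodes the alarmin IL-1α. Its signal was 6.57, 8.56 and 8.73 in wild type cells and 3.81, 5.13 and 5.79 in *Card9*-/- cells. The lowest wild type value, that of experiment 1, still lay above the highest *Card9*-/- value. It fell by 3.05 on the log2 scale (standard error 0.35, 95% confidence interval −3.81 to −2.29, adjusted p = 0.00624), an 8.27-fold lower signal. *Tnf*, the gene of the cytokine TNF, had 11.34, 12.22 and 11.88 in wild type cells and 8.90, 10.28 and 9.81 in *Card9*-/- cells. The groups did not overlap, and the difference was −2.15 (standard error 0.32, adjusted p = 0.0293), or 4.43-fold. *Saa3*, an acute-phase serum amyloid A gene that responds to IL-1 and TNF, varied more between the experiments than between the genotypes. Its signals were 6.196, 9.87 and 8.68 in wild type cells and 4.30, 7.96 and 5.73 in *Card9*-/- cells, so the groups overlapped although the value was lower in each experiment (−1.89, −1.91 and −2.95, adjusted p = 0.0235). *Tnfaip6* encodes TSG-6, a hyaluronan-binding protein secreted in inflammation, and its signal was 7.96, 9.13 and 9.44 in wild type cells against 6.86, 7.05 and 7.85 in *Card9*-/- cells (difference −1.59, adjusted p = 0.0293). *Cxcl16*, the gene of a membrane-bound chemokine and scavenger receptor, was lower by 1.05, 1.62 and 0.86 in the 3 experiments (log2 difference −1.18, adjusted p = 0.0393).

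*Cd274* encodes PD-L1, the ligand of the inhibitory receptor PD-1 of T cells. Its signal was 11.17, 11.22 and 9.68 in wild type cells and 8.66, 9.71 and 8.15 in *Card9*-/- cells. Experiment 3 was lowest in both groups, and its wild type value lay just below the *Card9*-/- value of experiment 2. The difference was −1.86 (standard error 0.30, adjusted p = 0.0494), close to the threshold. Another 3 lower genes were *Ninj1*, *Rab20* and *Acp5*. *Ninj1*, whose product ruptures the plasma membrane of dying cells, was lower by 0.95, 1.00 and 0.88 in the 3 experiments (adjusted p = 0.0175). *Rab20*, a small GTPase of phagosomes, had 8.93, 9.01 and 8.88 in wild type cells and 7.84, 7.94 and 8.08 in *Card9*-/- cells, with a narrow spread in both groups and no overlap (difference −0.99, adjusted p = 0.00624). *Acp5*, which encodes tartrate-resistant acid phosphatase, differed by −0.96 (adjusted p = 0.0494).

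The lower genes also held regulators of NF-κB and of MAP kinases, an exchange factor for Ral GTPases and a transcription factor. *Nfkbid* encodes IκBNS, a nuclear IκB protein that modulates NF-κB target genes, and had 10.85, 10.69 and 11.05 in wild type cells and 9.44, 9.43 and 10.19 in *Card9*-/- cells. The groups did not overlap (difference −1.18, standard error 0.13, adjusted p = 0.00624). *Nfkbib*, the gene of the cytoplasmic inhibitor IκBβ, had 10.58, 11.21 and 11.10 against 9.54, 9.72 and 10.43 (difference −1.07, adjusted p = 0.0393). *Gadd45b*, a stress-induced gene whose product binds MAP kinase kinases, had 11.98, 12.15 and 11.66 against 9.85, 10.75 and 10.44 (difference −1.59, adjusted p = 0.00624). In each of these 3 genes every wild type value was above every *Card9*-/- value. *Map3k8* encodes the kinase TPL2, through which NF-κB p105 and ERK signalling are linked, and its signal was lower by 1.52, 1.36 and 1.53 in the 3 experiments (adjusted p = 0.0393). *Ralgds*, an exchange factor for Ral GTPases that binds Ras, had 8.36, 8.79 and 7.74 in wild type cells and 6.28, 7.41 and 6.43 in *Card9*-/- cells (difference −1.59, adjusted p = 0.00624). It is the called neighbour of *Card9* on chromosome 2 that was named above. *Batf*, a transcription factor of the AP-1 family, had 7.96, 9.31 and 8.44 against 6.32, 6.86 and 7.30, without overlap (difference −1.74, adjusted p = 0.0285).

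The remaining lower genes among the 20 largest were *Adgb*, which encodes androglobin (−1.57), *Asprv1*, a retroviral-like aspartic protease (−0.96), *Best1*, a chloride channel (−0.89), and *Ciapin1*, which acts in iron-sulphur cluster assembly (−0.87). The 7 smaller ones were *Cdc42ep2*, an effector of CDC42, *Adhfe1*, *Tgif1*, a homeobox repressor in TGF-β signalling, *Trf*, which encodes transferrin, *Ly6i*, *Ms4a5* and *Snx20*, with differences from −0.86 to −0.62. The mean signals of *Adgb*, *Cxcl16* and *Ms4a5* lay below that of the median cluster, with *Ms4a5* the lowest of the 47 at 3.10. *Ly6i* belongs to a family of closely related genes whose probes can share signal, so its value is uncertain. Clusters that name no gene made up the other 7 lower ones, and 4 of them had identical values with a difference of −3.72, as in 10415081. A further one, 10468877, differed by −2.60. Both sets were as low on the control surface, at −3.39 and −2.77.

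**Figure D2:**
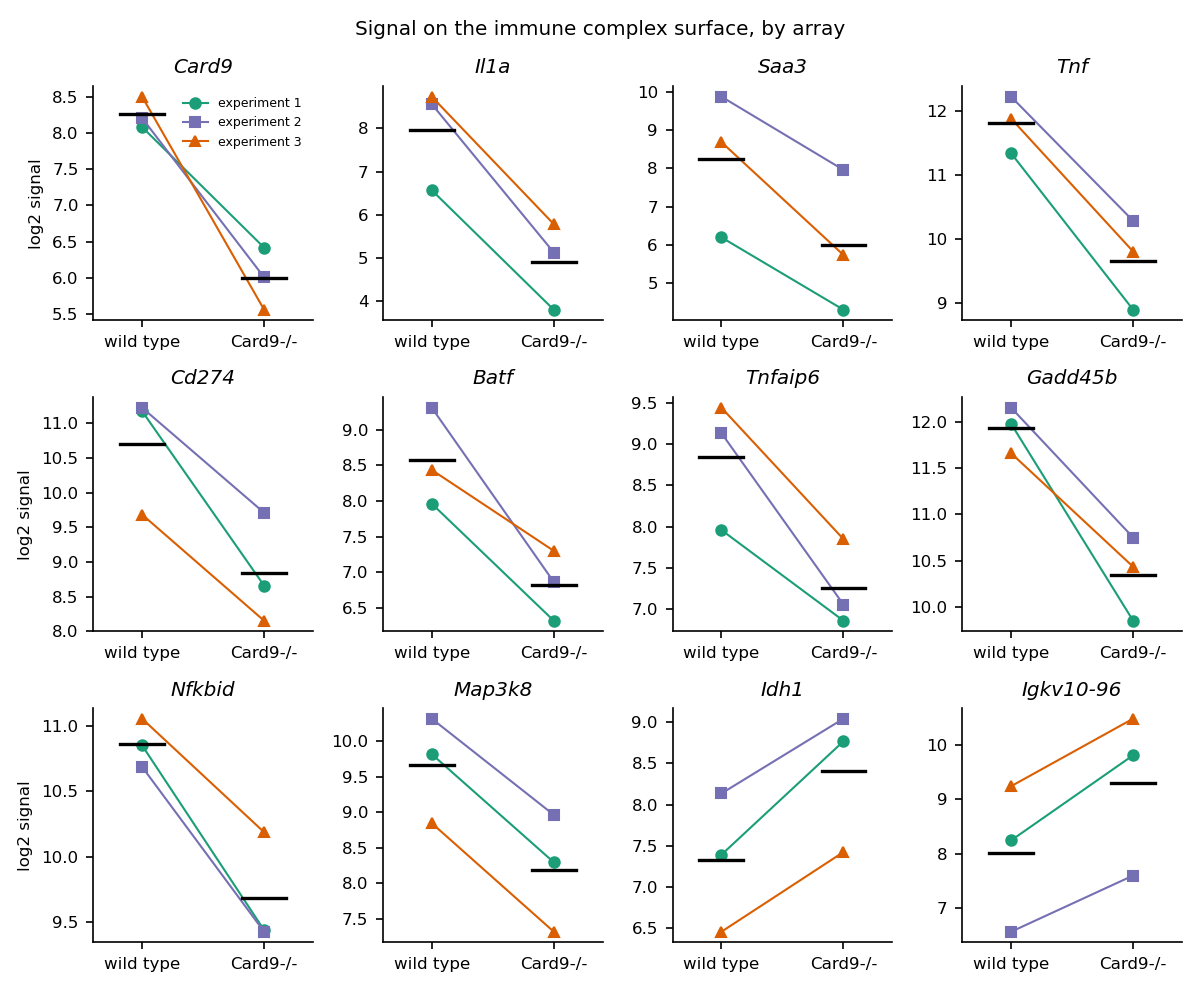
Log2 signal on IC (vertical axis, scaled for each gene) in wild type and *Card9*-/- cells (horizontal axis) for 12 called genes, with a line for each of 3 experiments and black bars for group means. Each line falls from wild type to *Card9*-/- for the 10 lower genes, from 8.56 to 5.13 for *Il1a* in experiment 2 for example, and rises for *Idh1* and *Igkv10-96*.

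The sequence before the transcription start of the called genes was searched for motifs of the factors that act in this pathway, because members that move together can share them. RefSeq promoters (GRCm38.p6) were at hand for 20 of the 26 called lower genes other than *Card9*, and *Adhfe1*, *Cxcl16*, *Ly6i*, *Map3k8*, *Snx20* and *Trf* had no entry. On both strands of the 250 bases before the start, the NF-κB consensus was found for 3 of the 20 genes (15%), against 8.23% of 27025 genes. The AP-1 motif TGANTCA was found for 2 (10%, against 7.82% of all genes) and the interferon response motif GAAANNGAAA for 1 (5%, against 3.46%). The counts are small and near the shares of all genes, and a match is a description of letters, not a site that was shown to be bound. The stretches that hold the matches are printed with the motif in capitals, 5′ to 3′ on the strand of the gene, together with the bases before the start of *Idh1*, the gene with the largest increase that had an entry, in which none of the 3 motifs was found.
Nfkbid, chr7:30422156-30422294, plus strand: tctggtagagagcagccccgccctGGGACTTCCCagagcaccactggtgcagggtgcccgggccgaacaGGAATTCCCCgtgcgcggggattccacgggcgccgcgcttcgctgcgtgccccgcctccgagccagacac
Asprv1, chr6:86627953-86628082, plus strand: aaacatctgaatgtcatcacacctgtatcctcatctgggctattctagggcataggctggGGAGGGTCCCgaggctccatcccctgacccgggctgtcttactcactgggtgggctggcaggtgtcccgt
Tgif1, chr17:70849791-70850036, minus strand: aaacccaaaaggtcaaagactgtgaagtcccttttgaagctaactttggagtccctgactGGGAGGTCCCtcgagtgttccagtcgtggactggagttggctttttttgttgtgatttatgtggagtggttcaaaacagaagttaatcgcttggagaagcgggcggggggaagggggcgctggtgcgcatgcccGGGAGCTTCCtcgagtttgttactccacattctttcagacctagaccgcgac
Il1a, chr2:129309973-129310044, minus strand: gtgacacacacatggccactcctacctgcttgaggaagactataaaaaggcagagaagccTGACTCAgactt
Tnfaip6, chr2:52037911-52038037, plus strand: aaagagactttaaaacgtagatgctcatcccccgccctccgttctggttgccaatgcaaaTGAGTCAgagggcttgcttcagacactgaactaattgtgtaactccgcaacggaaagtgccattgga
Saa3, chr7:46715732-46715861, minus strand: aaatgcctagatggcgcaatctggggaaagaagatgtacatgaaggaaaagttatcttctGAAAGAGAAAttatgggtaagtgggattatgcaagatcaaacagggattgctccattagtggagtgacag
Idh1, chr1:65186480-65186609, minus strand: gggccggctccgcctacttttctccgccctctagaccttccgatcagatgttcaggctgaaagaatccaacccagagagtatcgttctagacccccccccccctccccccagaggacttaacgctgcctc
*Nfkbid* and *Tgif1* hold a pair of NF-κB matches each and *Asprv1* holds 1. In *Il1a* the AP-1 match lies 12 to 6 bases before the start, and in *Tnfaip6* it lies 142 to 136 bases before it. The interferon response match of *Saa3* lies 125 to 116 bases before the start.

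NF-κB regulators were the list that lay lowest. Of 17 measured genes of IκB proteins and ubiquitin feedback, 16 had a difference below 0 and 10 were lower in all 3 experiments. The median was −1.03, against −0.014 for all clusters, with −1.14, −1.13 and −0.68 in experiments 1, 2 and 3. Of the 17, 2 passed the test (*Nfkbid* and *Nfkbib*), and 10 had an unadjusted p under 0.05 with a lower value, which 5.1% of all clusters had. *Traf1*, an adaptor of TNF receptors, had 7.60, 8.88 and 7.36 in wild type cells and 5.59, 6.43 and 6.28 in *Card9*-/- cells, and *Tnfaip3*, which encodes the ubiquitin-editing enzyme A20, had 10.28, 10.84 and 10.18 against 8.21, 8.60 and 8.91. Neither pair of groups overlapped, but neither gene passed over all clusters (differences −1.84 and −1.86, adjusted p = 0.0685 and 0.0951). *Nfkbia*, the gene of IκBα, differed by −1.39 (adjusted p = 0.0702).

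Of the 9 measured NF-κB subunits and IKK kinases 0 passed. The median was −0.42, and 6 members were lower in all 3 experiments, the same number as had an unadjusted p under 0.05. The members differed among themselves. *Relb* and *Nfkb2*, the subunits of the noncanonical pathway, differed by −1.33 and −1.26 (adjusted p = 0.0617 and 0.135), *Rel* and *Rela* by −0.50 and −0.42, and *Ikbkb*, the gene of the kinase IKKβ, by 0.05. *Ikbke*, which encodes the inducible kinase IKKε, had the widest spread. Its signal was 9.63, 10.61 and 7.33 in wild type cells and 6.25, 7.85 and 7.05 in *Card9*-/- cells, so that a difference of −3.39 and −2.76 in experiments 1 and 2 stood beside −0.29 in experiment 3 (adjusted p = 0.174, and past the threshold without experiment 3). The list median was −0.66 and −0.60 in experiments 1 and 2 and −0.12 in experiment 3. *Nfkb1* and *Chuk* were not read by a single-gene cluster here.

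**Figure D3:**
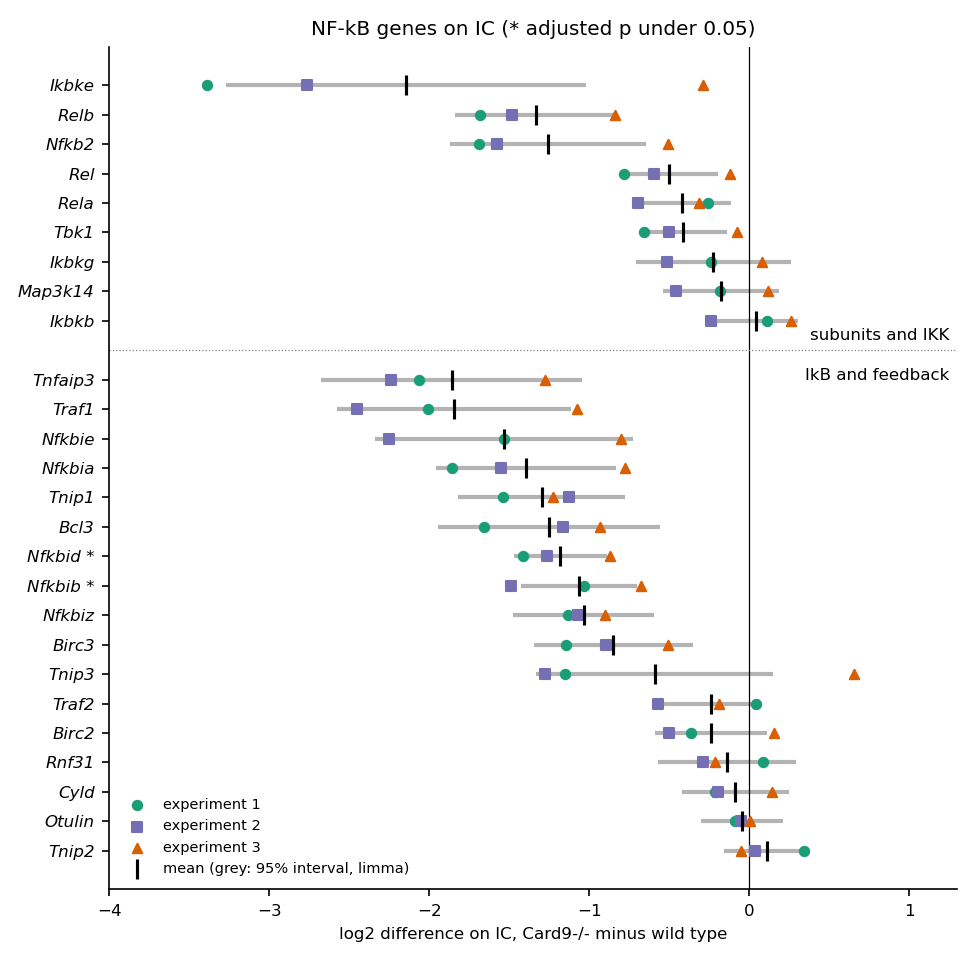
Log2 difference on IC (horizontal axis) of 9 NF-κB subunits and IKK kinases (top) and 17 IκB and feedback genes (bottom), with coloured symbols for the 3 experiments, black ticks for means, grey bars for 95% confidence intervals of limma and an asterisk for an adjusted p under 0.05. *Nfkbid* (−1.18) and *Nfkbib* (−1.07) passed, and experiment 3 (triangles) lies nearest to 0 for most of the lower genes.

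Cytokine genes were heterogeneous. The list of the interleukin-1 family holds not only cytokines but also the kinases *Irak2* and *Irak3*, the receptor *Il1r2* and the binding protein *Il18bp*. Of its 11 measured genes, 10 lay below 0, 9 were lower in all 3 experiments and 1 (*Il1a*) passed, with a median of −0.40. *Irak2*, a kinase of IL-1 receptor signalling, differed by −0.86 (adjusted p = 0.119). *Il1b*, the gene of IL-1β, had 12.10, 12.34 and 12.67 in wild type cells and 11.43, 12.07 and 12.66 in *Card9*-/- cells, a difference of −0.32 with a confidence interval of −0.89 to 0.26. In these array signals the interval does not exclude 0 and does exclude a difference as large as that of *Il1a*. The wild type mean on the control surface was already 11.89 for *Il1b* and 12.52 for the chemokine gene *Ccl3*. Whether signals this high limit the difference that the array can show was not tested. By PCR, a measure unlike an array signal, the study reported that *Card9*-/- cells induced *Il1b*, *Cxcl1*, *Ccl3* and *Cxcl2* much less on IC. Of 13 TNF family ligands and receptors, 1 (*Tnf*) passed and 6 had an unadjusted p under 0.05, with a median of −0.43. The death receptor gene *Fas* differed by −0.92, −1.02 and −0.97 in the 3 experiments and *Tnfrsf1b*, the gene of TNF receptor 2, by −1.12 in the mean (adjusted p = 0.0685 and 0.0695). Among 15 other cytokines 0 passed. *Il10* had 5.70, 7.61 and 4.67 in wild type cells and 4.01, 4.42 and 4.79 in *Card9*-/- cells, so that the sign in experiment 3 was opposite to that in the others (mean difference −1.59, adjusted p = 0.249).

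Of 11 CXC chemokines 1 (*Cxcl16*) passed, and 5 had an unadjusted p under 0.05. *Cxcl1*, which encodes the neutrophil attractant KC, had 7.005, 7.37 and 7.54 in wild type cells and 6.49, 6.19 and 6.46 in *Card9*-/- cells without overlap (difference −0.93, adjusted p = 0.0677). *Cxcl2*, the gene of MIP-2, had 10.83, 11.28 and 12.46 against 8.62, 9.72 and 12.46, so that differences of −2.21 and −1.56 in experiments 1 and 2 stood beside −0.01 in experiment 3 (mean −1.26, adjusted p = 0.519). *Ccl3*, the gene of MIP-1α, had 12.46, 12.87 and 12.999 against 11.89, 12.57 and 12.92 (difference −0.31, adjusted p = 0.787), and of 11 CC chemokines 0 passed and 1, *Ccl4*, had an unadjusted p under 0.05 (−1.198, adjusted p = 0.341). In experiment 3 the wild type signals of *Cxcl2*, *Ccl3* and *Ccl4* were the highest of the 3 experiments.

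Early response genes lay below 0 on the whole. Of 30 AP-1, EGR, NR4A and other immediate early genes, 2 passed (*Batf* and *Gadd45b*), 27 lay below 0 and 11 were lower in all 3 experiments. The list median was −0.28, with −0.36 and −0.62 in experiments 1 and 2 and 0.08 in experiment 3. Of 16 regulators of MAP kinase signalling, a list of kinases, phosphatases, Sprouty proteins and exchange factors, 2 passed. They were the kinase gene *Map3k8* and *Ralgds*, whose product acts on Ral GTPases. The list median was −0.30, with −0.39 and −0.58 in experiments 1 and 2 and −0.004 in experiment 3. *Dusp2*, a phosphatase of ERK, differed by −0.96 (adjusted p = 0.0723). Of 10 cytokine mRNA decay factors 0 passed. *Zc3h12a*, the gene of the ribonuclease regnase-1, differed by −1.23 (adjusted p = 0.119).

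Of 9 costimulatory ligands, 1 (*Cd274*) passed and 6 had an unadjusted p under 0.05, with a median of −0.74. By experiment the list median was −0.53 and −0.52 in experiments 1 and 2 and −0.15 in experiment 3. *Pdcd1lg2*, which encodes PD-L2, differed by −0.76 and *Icosl*, the gene of the ICOS ligand, by −0.82. Of 11 integrins, selectins and adhesion ligands, 0 passed. *Icam1*, which encodes the ligand of β2 integrins, came closest to the threshold, with 9.70, 10.82 and 9.39 in wild type cells and 7.40, 8.34 and 8.30 in *Card9*-/- cells (difference −1.95, adjusted p = 0.0553). Its groups did not overlap.

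Of 10 inflammasome and NOD genes, 0 passed and 6 had an unadjusted p under 0.05, among them *Nod2*, a sensor of bacterial muramyl dipeptide (−0.84, adjusted p = 0.0677), and *Nlrp3* (−0.97, adjusted p = 0.0842). The list median was −0.68 and −0.59 in experiments 1 and 2 and −0.14 in experiment 3. Of 14 Toll-like receptors and adaptors 0 passed and 4 had an unadjusted p under 0.05, with *Tlr2* at −0.71 and *Tlr9*, a sensor of DNA, at −1.28. *Tlr9* differed by −2.04 and −1.67 in experiments 1 and 2 and by −0.13 in experiment 3. Of 9 C-type lectin receptors, several of which signal through CARD9, 0 passed. Of the 9, 4 lay below 0 and 5 above it, and the median was 0.16. *Clec4e*, the gene of Mincle, differed by −0.50, −0.42 and −0.50 (adjusted p = 0.182), and *Clec12a* by 0.44, 0.62 and 0.08 (adjusted p = 0.355).

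Interferon-stimulated genes lay below 0 to a like extent in the 3 experiments. Of 24 measured genes 21 lay below 0 and 17 were lower in all 3 experiments, with medians of −0.43, −0.34 and −0.55 and a fitted median of −0.49. None of the 24 passed, and 13 had an unadjusted p under 0.05. *Oasl1* had 7.52, 7.88 and 7.63 in wild type cells and 6.93, 7.21 and 6.91 in *Card9*-/- cells, without overlap (difference −0.66, adjusted p = 0.0646), and *Irf7*, a master regulator of interferon genes, differed by −0.46. The median of the list on the control surface was −0.48. In a list of 15 NRF2, antioxidant and glutathione genes 0 passed, with medians of −0.79 and −0.61 in experiments 1 and 2 and −0.00060 in experiment 3. *Sod2*, the gene of mitochondrial superoxide dismutase, was listed there as an antioxidant gene and differed by −1.76 (adjusted p = 0.119).

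Several functional lists lay near the median of all clusters. Of 11 Fcγ receptors and partners 0 passed, with a median of −0.05 and *Fcgr4* at −0.26. Of 7 NADPH oxidase genes 0 passed, with a median of −0.05 and *Ncf4* at −0.47 (adjusted p = 0.238). For the synthesis of leukotrienes, the gene of 5-lipoxygenase, *Alox5*, had 10.43, 10.37 and 10.60 in wild type cells and 10.84, 10.68 and 10.59 in *Card9*-/- cells, a difference of 0.23 with a confidence interval of −0.01 to 0.47. *Alox5ap*, which encodes its activating protein, differed by 0.08 (−0.15 to 0.32) and *Lta4h*, the gene of leukotriene A4 hydrolase, by 0.16 (−0.11 to 0.43), and these intervals leave out decreases as large as those of the called cytokine genes. Of 6 leukotriene genes 0 passed and the median was 0.17. For the prostaglandin genes the median of 9 was −0.17 with 0 passed, and *Ptgs2*, which encodes cyclooxygenase-2, differed by −2.10, −1.64 and −0.33 (adjusted p = 0.39). Of 18 glycolysis and hypoxia genes, 16 cell cycle genes, 12 heat shock and chaperone genes and 17 lysosomal genes 0 passed in each list, with medians of −0.05, 0.04, 0.07 and −0.08. The cathepsin gene *Ctsz* was the lysosomal gene with the smallest p (−0.84, adjusted p = 0.0797).

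Further lists held no call. Of 15 SOCS and STAT genes, 13 regulators of death of the BCL-2 family and others, 12 genes of MHC class I presentation, 10 inhibitory receptors and 8 chemoattractant receptors 0 passed in each, with medians of −0.15, −0.10, −0.17, −0.05 and 0.11. In the acute-phase and matrix list the median of 15 genes was −0.10, although its 2 called members, *Saa3* and *Tnfaip6*, were among the lowest of the array, and *Ptx3*, which encodes pentraxin 3, differed by −0.47. *Bcl2l11*, the gene of the death-promoting protein BIM, differed by −1.02 (adjusted p = 0.119).

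**Figure D4:**
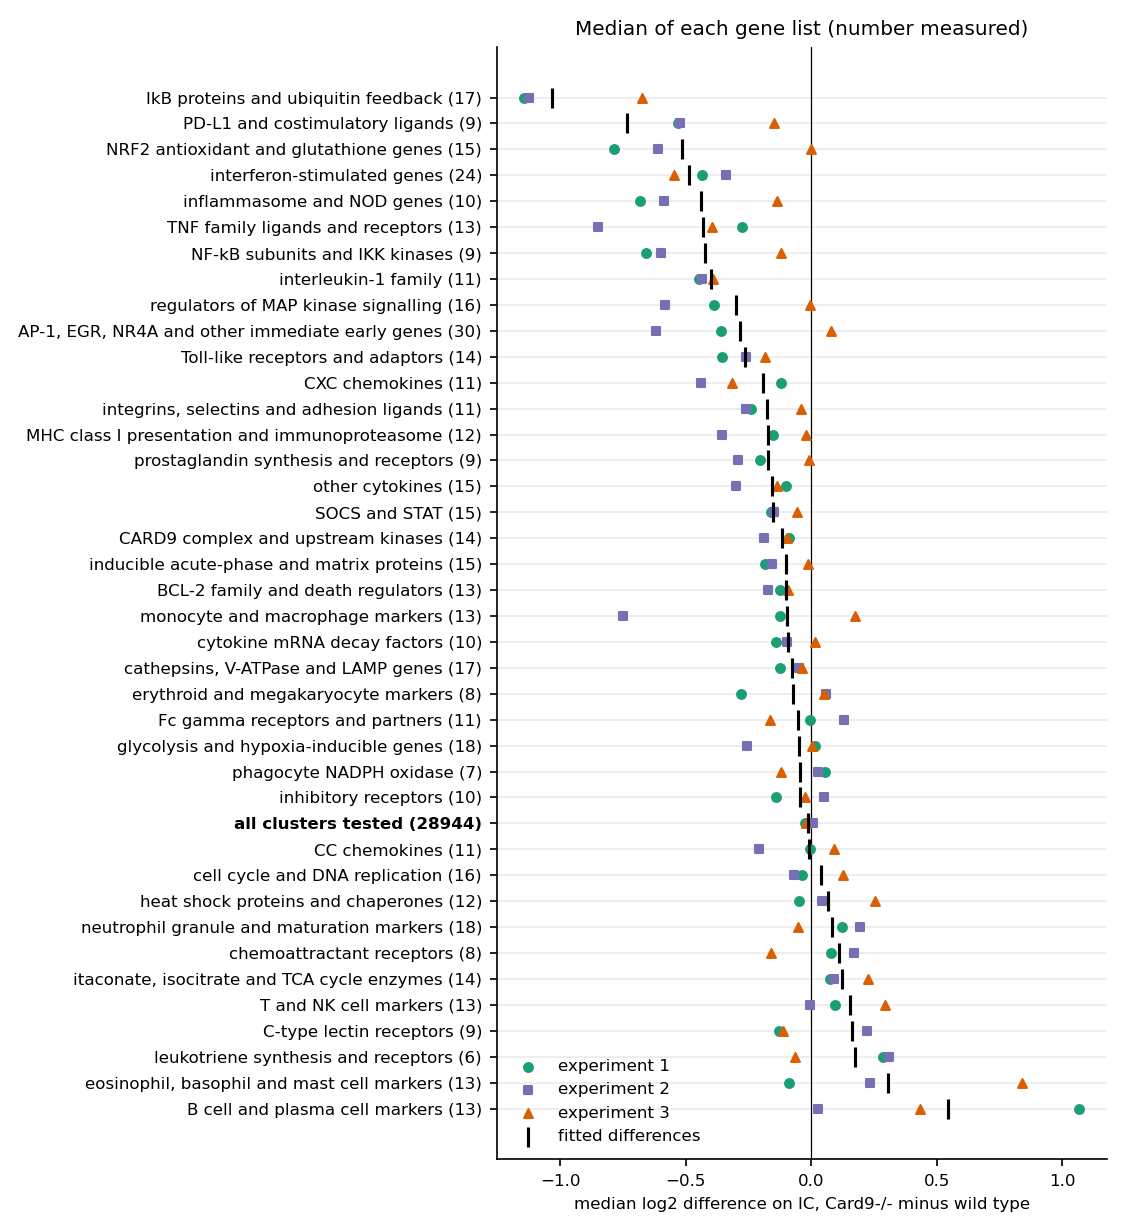
Median log2 difference on IC (horizontal axis) of 39 gene lists and of all clusters (bold), with the number of measured genes in brackets, coloured symbols for the 3 experiments and black ticks for the median of the fitted differences. The IκB and ubiquitin feedback list lies lowest (−1.03) and the B cell list highest (0.54), and the experiments differ by more than 1 for the B cell list.

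*Idh1*, which encodes the cytosolic isocitrate dehydrogenase, had 7.39, 8.14 and 6.45 in wild type cells and 8.77, 9.05 and 7.42 in *Card9*-/- cells. The groups overlapped because experiment 3 was low in both, but the increase was 1.38, 0.91 and 0.97 within the experiments (mean 1.09, standard error 0.17, adjusted p = 0.0393), or 2.13-fold. It was 1 of 14 genes of itaconate, isocitrate and the TCA cycle, of which no other passed, and the median of the list was 0.12. *Acod1*, the gene of the enzyme that makes itaconate, differed by −1.02 (adjusted p = 0.499). *Dipk1a*, a gene of a divergent protein kinase family, had 6.85, 6.92 and 6.91 in wild type cells and 7.59, 7.56 and 7.44 in *Card9*-/- cells. Its groups did not overlap (difference 0.63, adjusted p = 0.0494).

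A cluster that names both *Gm15446* and *Zfp932*, and so cannot be given to either, had 5.96, 5.76 and 5.54 in wild type cells and 6.65, 6.62 and 6.77 in *Card9*-/- cells, without overlap (difference 0.93, adjusted p = 0.0293). The other clusters that were higher and named a gene were those of immunoglobulins. *Igkv10-96*, a variable segment of the κ light chain, had 8.24, 6.56 and 9.24 in wild type cells and 9.81, 7.59 and 10.49 in *Card9*-/- cells (difference 1.28, adjusted p = 0.0494). The 2 clusters of *Igha*, the constant region of IgA, differed by 1.13 and 1.08 (adjusted p = 0.0494 and 0.0246). In all 3 clusters the experiments lay further apart than the genotypes, and the groups overlapped. Of the 15 single-gene clusters of immunoglobulin segments, a family chosen after its values were seen, 14 lay above 0, 10 were higher in all 3 experiments, 3 passed and 12 had an unadjusted p under 0.05 with a higher value, which 4.03% of all clusters had. Their median difference was 1.19, with 2.15, 0.78 and 0.92 in the 3 experiments, and 0.74 on the control surface. Several clusters name the same constant region and related variable segments can share probe signal, so the 15 values may not be separate measurements. They were not alike either, as *Igkv4-55* and *Igkv4-91* differed by −1.30 and 2.34 in experiment 2. Immunoglobulins are made by B cells and plasma cells. Of 13 measured B cell and plasma cell markers, 12 lay above 0, 0 passed and 4 had an unadjusted p under 0.05, with medians of 1.07, 0.03 and 0.43 in the 3 experiments. Their mean level was 5.76 to 7.86 in the wild type arrays and 5.76 to 8.35 in the *Card9*-/- arrays, and 11 of the 13 lay above the median cluster. *Jchain*, the joining chain of secreted IgA and IgM, differed by 2.10, −0.00 and 0.84, and *Pax5*, a B cell transcription factor, by 1.07, 0.03 and 0.53. The part of these cells in the result was not tested.

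Markers of other cells were set beside the lower genes as well. Of 13 monocyte and macrophage markers, 11 lay below 0, 0 passed, 3 had an unadjusted p under 0.05 with a lower value and 1 with a higher value. Their mean level was 7.78 to 7.98 in the wild type arrays and 7.40 to 8.08 in the *Card9*-/- arrays, and the list median was −0.12, −0.75 and 0.17 in the 3 experiments. *Csf1r*, the receptor of M-CSF, differed by −0.70 (adjusted p = 0.329) and *Ms4a7* by −0.55, with −0.19 and −0.50 in experiment 3. *Adgre1*, which encodes F4/80, differed by −2.001, −0.94 and 0.17 in the 3 experiments. *Ccr2*, the chemokine receptor of classical monocytes, went the other way, with a difference of 0.34 (unadjusted p = 0.0422, adjusted p = 0.526) and a higher value in each of the 3 experiments. The part of monocytes in the lower cytokine genes was not tested. Of 13 eosinophil, basophil and mast cell markers, 11 lay above 0 and 0 passed, with a median of 0.31 and mean levels of 6.66 to 7.04 and 6.91 to 7.63. Their median was −0.09, 0.23 and 0.84 in experiments 1, 2 and 3, and 3 of the 13 were higher in all 3. *Ccr3* and *Il5ra*, receptors of eosinophils, differed by 0.82 and 0.77 (adjusted p = 0.296 and 0.23), with only 0.27 and 0.10 in experiment 1. Of 13 T and NK cell markers and 8 erythroid and megakaryocyte markers 0 passed, with medians of 0.16 and −0.07.

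The genotypes also differed on the surface without IC. On the control surface 11 clusters passed between the genotypes (0.038%). All 27 genes that were lower on IC had a difference below 0 on the control surface, and the 4 higher genes had one above 0. The 27 include *Card9* itself, and the median over all clusters on the control surface was 0.026. The share of all clusters below 0 there was not counted, so these counts are a description only. For *Tnfaip6* the differences were alike, at −1.59 on IC and −1.54 on the control surface, whereas *Saa3* (−2.25 and −0.36), *Tnf* (−2.15 and −0.63), *Il1a* (−3.05 and −1.27), *Map3k8* (−1.47 and −0.41) and *Acp5* (−0.96 and −0.07) differed less on the control surface. In the limma test of the difference between the genotype effects on the 2 surfaces, 0 of the 28944 clusters passed (smallest adjusted p = 0.249). An unadjusted p under 0.05 was found for 1066 (3.68%). Among the 27 lower genes 18 had such an unadjusted p, but they had been selected by their IC values, which enter this difference, so the count is a description only. A factorial test without moderation or block also gave 0 for this difference. It gave 0 for the genotypes on IC as well, with *Card9* itself not called, so it cannot decide the question. No gene can therefore be called different in its genotype effect between the surfaces from these arrays.

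**Figure D5:**
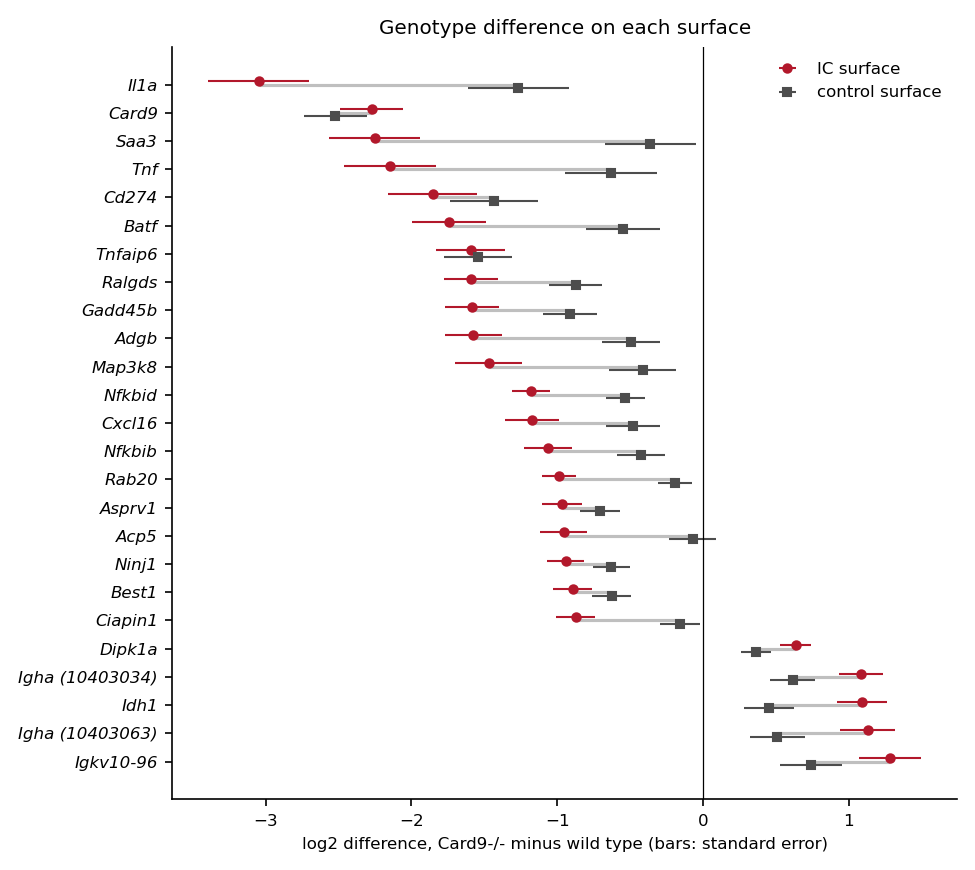
Genotype difference, *Card9*-/- minus wild type in log2 units (horizontal axis, bars are standard errors) on IC (circles) and on the control surface (squares) for the 20 largest lower genes and the 5 clusters of higher genes, with cluster identifiers where a gene has several. All differences on the control surface lie on the same side of 0 as on IC, with *Il1a* at −3.05 and −1.27 and *Acp5* at −0.96 and −0.07.

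Genes that missed the threshold could differ by as much as those that passed. Of the 105 clusters with a difference under −1, 84 were not called, and of the 85 with a difference over 1, 81 were not. By experiment, 200, 280 and 81 clusters were lower by over 1 in experiments 1, 2 and 3, and 27 were so in all 3, of which 17 were called. The uncalled ones, chosen here after their values were seen, included *Ccrl2*, an atypical receptor that presents chemerin (−3.13, −1.80 and −1.18, adjusted p = 0.0695), *Bcl2a1c*, a member of the A1 survival genes whose copies share sequence (−1.62, −1.04 and −1.02, adjusted p = 0.155), and *Tnip1*, a partner of A20 (−1.54, −1.13 and −1.22, adjusted p = 0.0695). On the other side *Igkv4-91* was higher by 3.22, 2.34 and 1.23 (adjusted p = 0.0646).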

How the data were processed

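Total RNA of mouse neutrophils was hybridized to 12 Affymetrix mouse gene arrays. The values are log2 signals per transcript cluster as deposited by the authors. How the signals were background-corrected, summarized and normalized was not given in the sources used here. Arrays were assigned to groups by their titles. Of 35556 rows, 6612 control probe sets were left out and 28944 clusters were tested, with 21789 that name a single gene, 1621 with several names and 5534 without a name. Gene names came from the annotation table of the platform, and 21698 of the single-gene clusters were found in a RefSeq table by their gene identifier.

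All 4 groups were fitted in limma 3.58.1 (R 4.3.3) with the experiment as a fixed block and eBayes (6 residual and 5.4 prior degrees of freedom), without further normalization or filter. Two-sided p values were adjusted over all clusters (Benjamini-Hochberg), and 0.05 was the threshold. The labels give each experiment number to 1 array of every group. Deviations from the group means correlated at 0.73 to 0.86 between IC arrays of the same experiment and at −0.73 to 0.36 between different experiments. The labels do not state whether the samples came from separate animals, so p values measure the spread between these arrays, whose number limits the precision. The fit was tested on simulated data of the same design. A gene with several clusters was represented in a list by the one with the highest mean signal.

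The members and lists were chosen with earlier results of these data known. Genes named are *Card9*, up to 20 lower and 10 higher called single genes by size, the genes measured by PCR or ELISA in the study, and the 3 members of each of 39 lists with the smallest p. Others are named beside their list or count, and were chosen after their values were seen. Of 556 listed genes 502 were read by a single-gene cluster. Alternatives were another treatment of the block, other normalizations, a signal filter, limma-trend, a robust eBayes, fewer arrays, no moderation, identical clusters tested once, and each experiment left out. Promoters were searched with Python 3.11.15 and figures were drawn with matplotlib 3.10.9.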

Additional observations from a re-analysis of the deposited data

How the results depend on the processing

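The 47 calls on IC (34 lower and 13 higher) depended on how the experiment entered the fit, on which arrays were fitted and on the normalization. A fit without the replicate block, which leaves the pairing of the arrays by experiment unused, gave 0 calls (0 lower, 0 higher, 207 clusters at an unadjusted p under 0.05, smallest adjusted p = 0.0777), and the factorial test without moderation or block also gave 0 in each direction (270 at an unadjusted p under 0.05). With the experiment as a random block there were 105 (85 and 20), with the 6 IC arrays alone 173 (101 and 72), and after median centring 22 (19 and 3). The higher clusters were 5 after quantile normalization, 4 with limma-trend and 4 with identical clusters tested once. Leaving out 1 experiment gave 3 to 116 calls, with 2 to 104 lower and 1 to 52 higher, the fewest without experiment 2. The cause was not tested. Of the 47 clusters, 46 were among the calls with the random block, 42 with the 6 IC arrays alone, 30 after quantile normalization and 16, 2 and 23 without experiments 1, 2 and 3. The count of 0 for the difference between the surfaces stayed at 0 in the 6 alternatives planned for it and run.

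Of 25 called clusters followed individually, 0 changed sign under any alternative, while the adjusted p ranged from 0.000514 to 1 for *Il1a* and from 0.0001271 to 0.567 for *Card9*. The 1 followed gene that changed sign was *Alox5ap*, which was not called and lay at −0.027 without experiment 1 (range without 1 experiment −0.027 to 0.20). Of 507 list medians under the alternatives 496 stayed within the spread between experiments and 11 moved further, among them the CXC chemokines, at −0.93 over clusters above the median signal.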

Other observations

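Abundant RNA classes that no comparison above covers were described by their families of clusters, chosen after earlier results were known. Of 217 clusters of cytosolic ribosomal proteins, 161 lay above 0 on IC and 56 were higher in all 3 experiments, with a median of 0.05 and 0 calls. Of all 28944 clusters 13442 lay above 0, and 13.5% were higher in all 3 experiments. The medians of the ribosomal clusters were 0.14, −0.0045 and −0.02 in experiments 1, 2 and 3, and 0.12 on the control surface. Of 60 small nucleolar and Cajal body RNA clusters 47 lay above 0, with medians of 0.11, −0.19 and 0.44 in experiments 1, 2 and 3 and 0 calls. Their median on the control surface was −0.10. Of 114 clusters of the mitochondrial respiratory chain 61 lay above 0, with a median of 0.02 and 0 calls. Clusters that name no gene made up 7 of the 13 higher calls, 6 of them with identical values and a difference of 0.85, as in 10417599. On the control surface that set differed by 0.16.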
